A study of Caenorhabditis elegans with 4 samples.

Results

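The HLH-30 peaks on chromosome V are the 503 intervals, of 2791 in all, that a combined list of binding sites places on that chromosome of Caenorhabditis elegans. They were chosen by chromosome name alone, and no value of theirs was used. The corresponding lists of the 2 ChIP replicates held 289 of 1527 peaks and 308 of 1559 peaks on V. All libraries came from L4 hermaphrodites of strain OP433, grown at 20 °C. They carried the mutation unc-119(ed3) on chromosome III and the integrated transgene wgIs433, which holds hlh-30::TY1 EGFP FLAG and unc-119(+). The tagged factor was therefore made from a transgene introduced by bombardment, with unc-119(+) as a rescue marker, and the genotype lists no mutation of the animals' own hlh-30 gene. Chromatin was crosslinked with 2% formaldehyde and precipitated with anti-GFP antibodies in the 2 ChIP libraries, and the 2 input libraries, made from the same strain without precipitation, are not analysed here. Whole larvae were used, so a peak is an average over all cells and does not show in which cells the factor was bound.

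HLH-30, the orthologue of mammalian TFEB in worms, is a transcription factor of the helix-loop-helix family that is known for switching on autophagy, lysosome and starvation genes. Chromosome V is the longest chromosome of the worm. As on the other autosomes, its central region is known to be rich in conserved and broadly expressed genes and to recombine rarely, while its arms recombine often, carry more repeats and repressive histone marks and contact the nuclear envelope. The arms of V are also known for large families of chemoreceptor genes and other genes that multiplied in nematodes. Coordinates below are those of the files, on build WormBase WS180. No sequence or gene annotation of that build was used here, so peaks are given by position and no gene is assigned to them.

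The lists hold 1 value per peak, the q-value of the peak caller PeakSeq, which is a p-value adjusted for multiple testing. Strength is given here as −log10 q, so that a larger value is a stronger peak. There are no read counts, so the depth of the libraries is unknown, and a q-value gains from the width of an interval and from sequencing depth as well as from enrichment. Shares carry 95% Wilson intervals, which cover counting error only. Peaks are not replicates and neighbouring peaks are not independent, so values for V are set beside those of the other 5 chromosomes as a description, and no test of a difference between chromosomes or between parts of V was run. The labels do not tell whether separate cultures were used for the replicates, so their spread may be technical.

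Chromosome V carried 24.1 combined peaks per Mb over 20.9 Mb, which was rank 5 of the 6 chromosomes, and the other 5 together carried 28.9 per Mb. Replicate 1 gave 13.8 peaks per Mb on V and replicate 2 gave 14.7, a mean of 14.3 ± 0.643 (SD, n = 2), ranks 5 and 4 in order. The combined list was thus 1.69 times as dense on V as the replicates. On the other 5 chromosomes it was denser too, at 28.9 per Mb against 15.6 and 15.8 in the replicates. The combined peaks of V covered 386.5 kb, or 1.85% of the chromosome. The first combined peak began at 8102. The last ended at 20899426, which is also the length taken for V here, so the distance from it to the true chromosome end is not known.

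The middle of the chromosome held most of the crowding. V was divided into parts of equal length at 33.3% and 66.7%. The middle part held 244 of the 503 peak centres (48.5%, 95% interval 44.2 to 52.9), against 41.0% of combined peaks over all chromosomes. That background includes V itself and X, which had 29.0%, while the other autosomes had 40.2% to 43.96%. The left part held 144 (28.6%, 24.9 to 32.7) and the right part 115 (22.9%, 19.4 to 26.7). In peaks per Mb these are 35.0 in the middle, 20.7 on the left and 16.5 on the right. The replicates gave the same order, with 20.8 and 22.5 per Mb in the middle, 10.9 and 12.1 on the left, and 9.76 and 9.62 on the right. The share in the middle was 50.6% ± 0.566 (SD, n = 2) in the replicates, against 40.4% of all replicate 1 peaks and 42.1% of all replicate 2 peaks. V had the highest middle share of the 6 chromosomes in each of the 3 lists, with II next in the combined list, at 43.96%, and I next in the replicates, at 46.8% and 48.2%. When each group of peaks joined over gaps of up to 10 kb counted as 1, the share on V was 43.5%. That count was made for V alone, so the rank of V under it is not known.

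A finer division showed where along V the peaks lay. The stretch from 50% to 60% of the length was the fullest in every list, with 93 combined peaks (18.5%, 15.3 to 22.1), 62 of replicate 1 (21.5%) and 66 of replicate 2 (21.4%). On the other autosomes the same stretch held 12.4% of combined peaks, and on X 5.01%. This sets the fullest stretch of V beside stretches that were not the fullest elsewhere. The other autosomes were highest at 60% to 70%, with 13.5%. X was lowest at 50% to 60% and highest at 70% to 80%, with 15.0%. Sparse stretches, with under 5% of the combined list, lay on either side. From 10% to 20% there were 25 combined peaks (4.97%, 3.39 to 7.23), and from 80% to 90% there were 18 (3.58%, 2.28 to 5.59). The replicates held 14 and 15 peaks in the former, and 10 and 12 in the latter. Both sparse stretches lay inward of fuller chromosome ends. The outermost 10% on the left held 42 combined peaks, and the outermost 10% on the right held 39. In all 3 lists each sparse stretch held fewer peaks than the chromosome end beyond it.

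**Figure D1:**
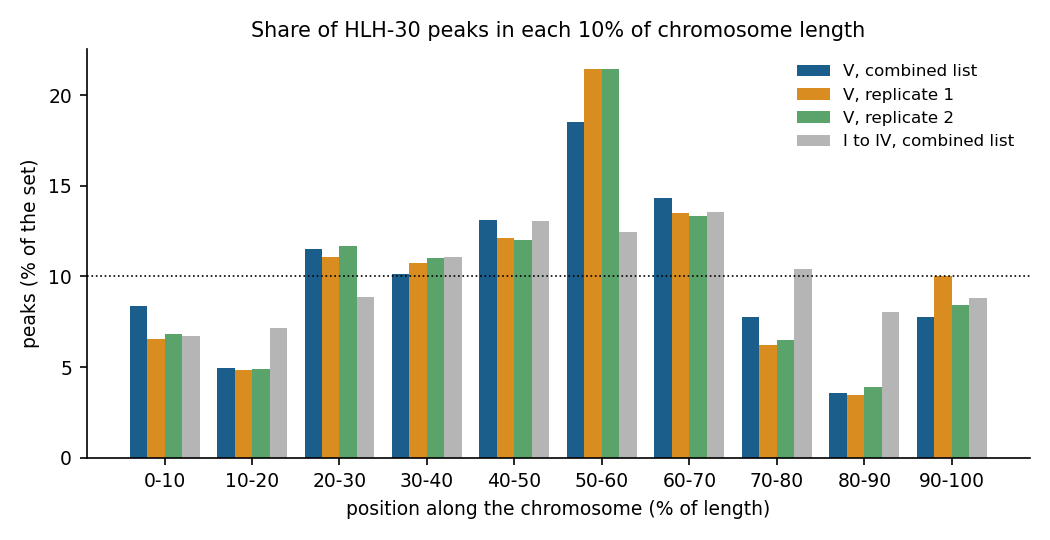
Share of peaks (% of each set) in each 10% of chromosome length, for the 3 lists on V and for the combined peaks of chromosomes I to IV. The dotted line at 10% marks an even spread; the bars for V are highest at 50% to 60%, where the combined list has 18.5%, and lowest at 80% to 90%, where it has 3.58%.

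Bins of 250 kb resolved this further. V was covered by 84 bins, of which the last was 149.4 kb long, with a median of 6 and a mean of 5.99 combined peaks per bin. The fullest bins held 17 peaks each and ran from 10750001 to 11000000 and from 12500001 to 12750000. They held 8 and 10 peaks in replicate 1, and 11 and 12 in replicate 2. A further pair of bins held 16 peaks each. That from 6000001 to 6250000 lay left of the middle part and contained the strongest peak of V, and that from 13250001 to 13500000 had only 4 of its 16 peaks in both replicates. Bins with 10 or more peaks numbered 15, together held 190 peaks (37.8%), and 11 of them lay in the middle part. The run of 14 bins from 10000001 to 13500000, chosen after its values were seen, made up 16.7% of the length and held 44.3 combined peaks per Mb. It held 32.5% of the peaks of either replicate (94 of 289 and 100 of 308). The crowding was uneven within it, since 1 of its bins held 2 peaks. The bin counts of the replicates were alike. They were equal in 40 bins, differed by 1 in 27 and by at most 3 in the other 17, with Pearson's r of 0.93 and Spearman's rho of 0.92 over the 84 bins, which share the same libraries and bin borders.

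**Figure D2:**
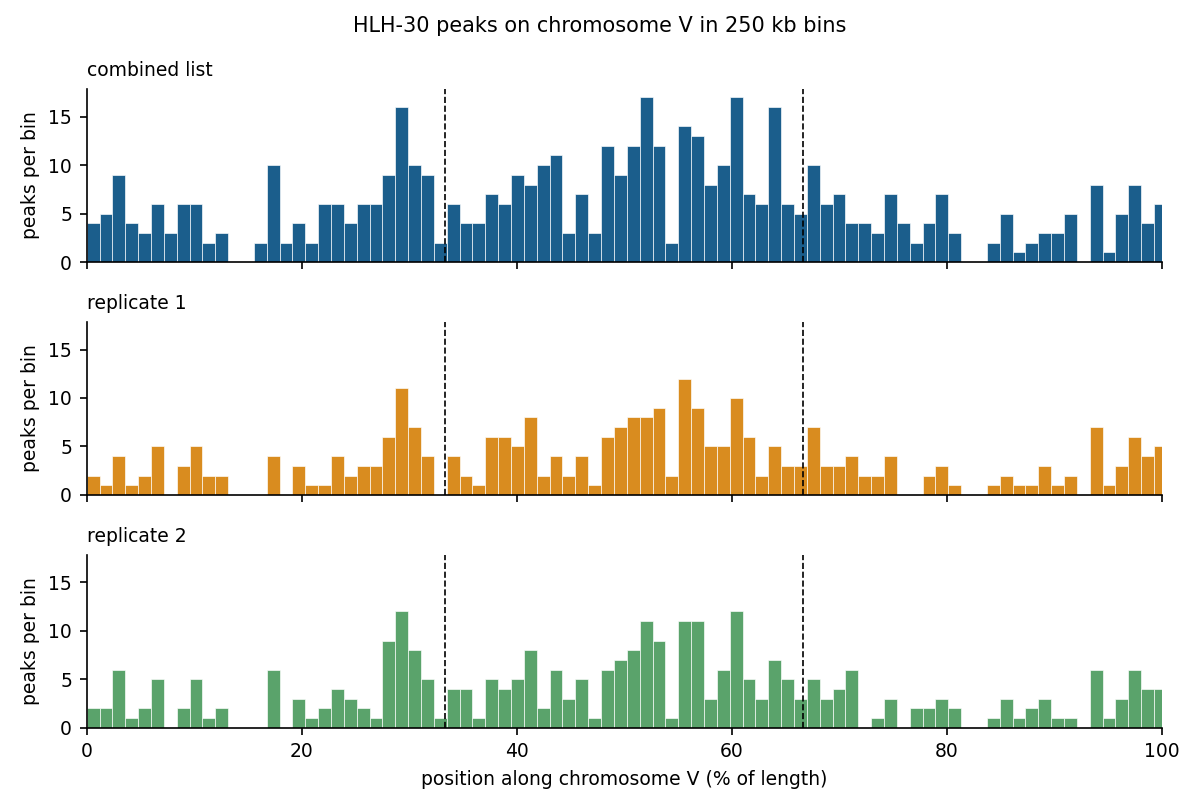
Number of HLH-30 peaks in each 250 kb bin of chromosome V by position (% of length), in the combined list and in each replicate; dashed lines mark 33.3% and 66.7% of the length. The fullest combined bins reach 17 peaks, and 5 bins are empty in all 3 lists.

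The 5 longest stretches without a peak all lay outside the middle part. Together they made up 2.25 Mb, or 10.8% of V. The sixth longest, at 289.7 kb, lay in the middle part. On the right arm no combined peak lay between 16966041 and 17659113, a stretch of 693.1 kb. It was bordered by peaks with −log10 q of 11.9 and 8.17, both found in both replicates. No peak of either replicate had its centre inside it. On the left arm the stretch from 2694751 to 3315323 was 620.6 kb long and was also free of replicate peak centres. It ended at a combined peak with −log10 q of 3.8 that neither replicate contained. In the replicate lists the empty stretch there was therefore longer, at 884.5 kb in replicate 1 and 811.0 kb in replicate 2, and it was the longest in each.

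The next 3 stretches were of similar length, and no replicate peak had its centre in any of them. They ran from 2278424 to 2600573 (322.2 kb), from 19212663 to 19519437 (306.8 kb) and from 16046276 to 16350876 (304.6 kb). The second of these ended at a strong peak, with −log10 q of 58.3, so that a site among the strongest 24 of V stood directly at the edge of an empty stretch. The 5 bins empty in the combined list fell in 3 of these 5 stretches, from 2750001 to 3250000, from 17000001 to 17500000 and from 19250001 to 19500000, and they were empty in both replicates too. Replicate 1 had 11 empty bins and replicate 2 had 10, of which 9 were shared. Of the other chromosomes, I, II, III, IV and X had 1, 2, 0, 1 and 3 empty bins in the combined list, out of 56 to 71. II had a longer peak-free stretch than V, at 833.0 kb, and III the shortest maximum, at 234.2 kb.

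Peaks on V were spaced very unevenly. The median gap between neighbouring combined peaks, from the end of one to the start of the next, was 17.4 kb, with quartiles of 2.97 and 53.96 kb. The mean gap was 40.8 kb, 2.35 times the median. Of the 502 gaps, 67 were under 1 kb and 40 under 500 bp, the shortest being 201 bp, while 59 exceeded 100 kb. Those 59 gaps together spanned 10.1 Mb, or 48.3% of V. The left and right parts each held 21 of them and the middle part 17. Median gaps were 18.9 kb on the left, 12.6 kb in the middle and 29.5 kb on the right. In the replicates the median gap on V was 27.2 and 26.0 kb, or 26.6 ± 0.844 kb (SD, n = 2). On the other 5 chromosomes the combined median was 15.0 kb, and the medians ranged from 11.1 kb on III to 27.3 kb on IV.

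A neighbour within 5 kb was present for 240 combined peaks on V (47.7%), against 50.3% over all chromosomes. The share was 45.7% in replicate 1 and 47.7% in replicate 2. It was 55.7% in the middle part, 36.8% on the left and 44.3% on the right. By 10% of length it ranged from 11.1% at 80% to 90%, where 2 of 18 peaks had such a neighbour, to 65.6% at 50% to 60%.

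When peaks no more than 10 kb apart were joined, 307 of the 503 peaks (61.0%, against 64.0% over all chromosomes) fell in 105 groups and 196 were left alone. The share was 54.6% ± 0.86 in the replicates (SD, n = 2). Most groups were small, with 58 of 2 peaks, 24 of 3 and 11 of 4. The 12 groups of 5 or more held 75 peaks, and 9 of these groups lay in the middle part, 2 on the left and 1 on the right. Grouped peaks had a median width of 619 bp and a median −log10 q of 8.41, and lone peaks had 464 bp and 7.27. Of the grouped peaks 50.2% (44.6 to 55.7) were in both replicates, and of the lone peaks 42.9% (36.1 to 49.9). Groups of 5 or more were no higher in this respect, at 42.7% (32.1 to 53.9).

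By number of peaks 2 stretches led with 9 each, and the one with the stronger site ran from 6213422 to 6247922. Its 9 peaks lay within 34.5 kb and covered 37.3% of it. The 8419 bp peak from 6222768 to 6231186 was the strongest of V, with −log10 q of 202.5, and the other 8 reached at most 17.0. Of the 9, 5 were in both replicates, 2 in replicate 2 alone and 2 in neither.

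The second stretch of 9 peaks, from 12528077 to 12557343, had no such site. Its strongest peak, from 12552740 to 12553917, had −log10 q of 27.1 in the combined list, 13.3 in replicate 1 and 17.8 in replicate 2. Its widest peak, from 12548687 to 12551145, had 21.4 in the combined list, 7.80 in replicate 1 and 12.9 for the stronger of its 2 peaks in replicate 2. The remaining 7 lay between 3.74 and 8.62, and 5 of them were in neither replicate. Replicate 2 gave the larger value at both leading peaks.

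Near the centre of V, from 10708257 to 10737075, 8 peaks included a tight array of broad and strong ones. From left to right the 4 leading peaks were 4489, 2764, 2345 and 1514 bp wide, separated by gaps of at most 404 bp. Their −log10 q were 102.2, 82.4, 60.6 and 21.9 in the combined list. In replicate 1 they were 39.2, 41.6, 36.3 and 7.49, and in replicate 2 they were 46.7, 44.9, 34.6 and 13.5. All 4 were in both replicates. The first held 2 peaks of each replicate and the last held 2 of replicate 2, of which the stronger is given. Where a replicate split a peak, the replicate value is not comparable with the combined one. The outer 4 peaks of the stretch reached at most 9.23, and 3 of them were in neither replicate.

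The next stretch, of 7 peaks from 9074344 to 9098985, was led by a peak with −log10 q of 54.02 in the combined list, 30.3 in replicate 1 and 29.7 in replicate 2. The fifth, of 6 peaks from 10858004 to 10873524, had a strong peak near each end, with 43.3 and 44.6 in the combined list. Replicate 1 gave 23.1 and 17.5 for them. Replicate 2 split the first into 2 peaks, the stronger with 13.6, so its strength there is not comparable, and gave 23.1 for the second. A different kind of stretch, singled out after its values were seen, ran from 13371171 to 13380574. All 6 of its peaks were narrow, from 337 to 554 bp, with −log10 q of 3.88 to 7.19, and none overlapped a peak of either replicate.

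Of the 12 strongest peaks of V, 6 lay in the middle part, 2 on the left and 4 on the right. All were in both replicates. Their −log10 q ran from 62.2 to 202.5 in the combined list, 7 were wider than 2000 bp, and 5 had no other peak within 10 kb.

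The second strongest and widest of V, from 5838415 to 5846900, is 8486 bp wide and had −log10 q of 160.5. Replicate 1 split it into 2 peaks, the stronger with 92.1, the highest of V in that list. Replicate 2 split it into 5, the strongest with 61.1, rank 4 on V. The top peak of V, given above, held 2 peaks of each replicate, with 61.4 and 61.7 at best. Because the combined peak overlaps several replicate peaks in these cases, its strength is not comparable with that of a single replicate peak.

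Next came the peak from 13655164 to 13659645, with 149.7 in the combined list, 85.9 in replicate 1 and 69.7 in replicate 2, where it led the chromosome. It was 4482 bp wide and stood alone, 18.9 kb from its nearest neighbour. The fourth, from 9343013 to 9344874, was narrower, at 1862 bp, and stood 79.6 kb from any other peak. It had 106.8 in the combined list, 56.8 in replicate 1 and 62.3 in replicate 2, and was 1 of 4 among the 12 that were stronger in replicate 2.

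The fifth strongest, from 14848325 to 14851629, had 102.9 in the combined list, but held 3 peaks of each replicate, at best 34.7 and 25.6. It bordered a peak-free stretch of 285.2 kb, the eighth longest of V. The sixth, from 13907488 to 13909872, had nearly the same combined strength, 102.8, with a single peak of 52.5 in replicate 1 and of 50.8 in replicate 2. The seventh and eighth are the first members of the array at the centre.

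Of the remaining 4, the narrowest was the tenth, from 14054974 to 14055488. It was 515 bp wide and had 64.2 in the combined list, 35.5 in replicate 1 and 27.4 in replicate 2. The ninth, from 9789678 to 9790804, had 78.7, 51.2 and 43.0 in the same order. The eleventh and twelfth lay close to the right end. They ran from 20413978 to 20415456, with 63.9, 25.6 (the stronger of 2 peaks) and 22.8, and from 19528983 to 19529622, with 62.2, 32.8 and 29.96. On each of the last 4 peaks replicate 1 gave the larger value.

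**Figure D3:**
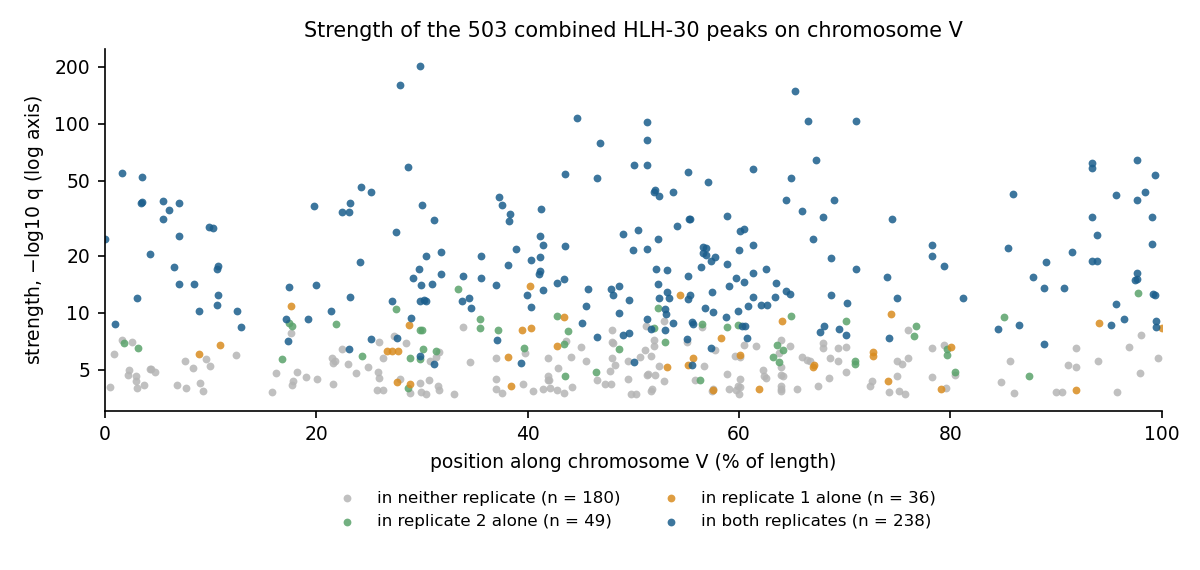
Strength (−log10 q, log axis) of each of the 503 combined peaks by position along chromosome V (% of length), coloured by overlap with the replicate lists. Peaks found in both replicates (238) reach 202.5, whereas those in neither (180) stay at or under 9.07 along the whole chromosome.

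The share of strong peaks was nearly equal in the 3 parts of V, though not at finer scale. Peaks with −log10 q of at least 20 made up 18.8% of the left part (27 of 144), 18.9% of the middle (46 of 244) and 18.3% of the right (21 of 115). The median −log10 q of combined peaks was 6.95, 8.53 and 8.16 from left to right. In replicate 1 these medians were 7.54, 7.29 and 8.07, and in replicate 2 they were 7.32, 6.43 and 6.96, so the lists did not put the 3 parts in the same order. The last 10% on the right had the highest combined median of the 10 stretches. Its 39 peaks had a median of 12.6 in the combined list, 11.3 in replicate 1 and 10.7 in replicate 2. Of them 12 (30.8%) reached 20, and 25 (64.1%, 48.4 to 77.3) were in both replicates. At the left end 12 of 42 (28.6%) reached 20, but 21 (50.0%, 35.5 to 64.5) were in neither replicate and the median was 6.74. The replicate peaks of the left end were strong, with medians of 16.7 and 11.2. From 70% to 80% of the length the share in both replicates was 28.2% (16.5 to 43.8).

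Widths on V ran from 245 to 8486 bp in the combined list, with quartiles of 391.5, 533 and 820.5 bp. Median widths were 522 bp in replicate 1 and 549.5 bp in replicate 2, and 516 bp over the combined peaks of the other 5 chromosomes. Peaks over 2000 bp numbered 23 (4.57%, against 4.34% over all chromosomes), of which 13 lay in the middle part, 6 on the left and 4 on the right. Peaks of 1000 bp or more numbered 93 (18.5%, against 16.4% over all chromosomes), of which 75 were in both replicates. The widest 5 include 4 of the strongest already named. The exception, from 723683 to 728505 near the left end, was 4823 bp wide with −log10 q of 38.2 in the combined list, 19.5 in replicate 1 and 12.5 in replicate 2. Width and strength rose together across the 503 peaks, with Spearman's rho of 0.55 on V and 0.53 over the other 5 chromosomes, and 0.49 and 0.56 in the replicates on V. Both come from the reads of the same interval.

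Of the combined peaks of V, 17 overlapped at least 2 peaks of the same replicate. They had a median width of 2459 bp, and none was narrower than 1261 bp. Replicate 1 was split in 12 of them, replicate 2 in 13, and both in 8. The opposite, a replicate peak spanning 2 combined peaks, did not occur on V in either list.

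The combined peaks of V were then set beside the replicate lists, with an overlap of at least 1 bp counted as shared. In both replicates were 238 (47.3%, 43.0 to 51.7), against 44.5% over all chromosomes. In replicate 1 alone were 36 (7.16%, background 8.31%), in replicate 2 alone 49 (9.74%, background 9.17%) and in neither 180 (35.8%, 31.7 to 40.1, background 38.1%). On the other chromosomes the share in both ran from 27.5% on IV to 50.3% on X, so V was at rank 3. The 238 shared peaks covered 246.0 kb, or 63.7% of all peak sequence on V. How the combined list was made is not stated, so this overlap was not taken as an independent check of its peaks.

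As a class, peaks in both replicates were the strongest and widest. They had a median −log10 q of 16.2. The medians were 6.23 in replicate 1 alone, 6.93 in replicate 2 alone and 4.83 in neither. Their median widths were 707, 476, 522 and 405.5 bp in that order. By strength, all 101 peaks of the strongest 20% were in both replicates, and so were 94 of 101 in the next 20%. In the middle 20%, with −log10 q from 6.55 to 9.84, 37 of 101 were in both and 28 in neither. Of the weakest 20%, 0 of 100 were in both (95% Wilson interval 0 to 3.699%), and 88 were in neither. On V the lists end at −log10 q of 3.87 in each replicate and 3.71 in the combined list. Combined peaks of at least 20 with 1 peak of each replicate had replicate values at a median 0.547 and 0.514 of their own. The change with strength is therefore not separate from these cutoffs. By width the change was less steep, from 79 of 101 in both for the widest 20% to 18 of 100 for the narrowest. The middle part of V held 51.3% of the peaks in both and 46.1% of those in neither.

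**Figure D4:**
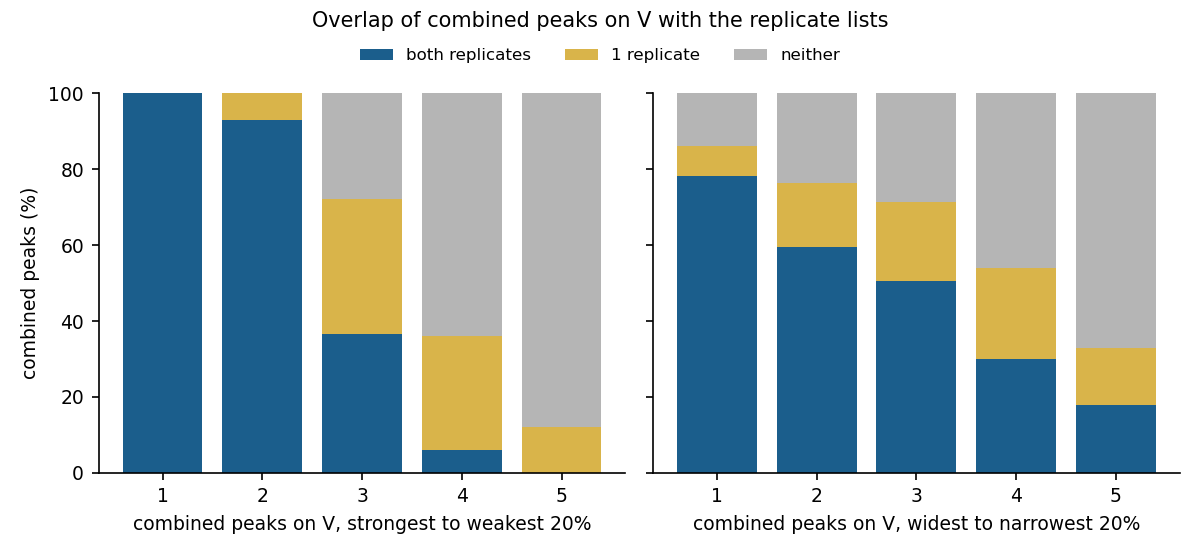
Share (%) of the combined peaks of V that overlap a peak of both replicates, of 1 replicate or of neither, in steps of 20% by strength (left) and by width (right). By strength, the share in both falls from 101 of 101 peaks to 0 of 100, and by width from 79 of 101 to 18 of 100. Each list has its own q-value cutoff, and the fall with strength is not separate from these cutoffs.

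The strongest peak of V missing from both replicates ran from 11061884 to 11062422, with −log10 q of 9.07. The next 4, from 10708257 to 10708705, from 11803430 to 11803824, from 7089250 to 7089611 and from 15880034 to 15881141, had between 8.16 and 8.53. All 5 lay within 5918 bp of another combined peak. By contrast, the leading peaks of a single replicate were stronger and some were isolated. In replicate 1 alone the leader ran from 8403130 to 8403663, with 13.9 in the combined list and 5.25 in replicate 1. The next peaks of that class, from 11375157 to 11375606 and from 3685691 to 3686330, had 12.4 and 10.9 in the combined list and 8.81 and 5.66 in replicate 1. In replicate 2 alone the leader ran from 6993821 to 6994384, with 13.3 in the combined list and 7.84 in replicate 2, and its nearest neighbour was 66.0 kb away. It was followed by the peaks from 20419608 to 20420518 and from 10938673 to 10939221, with 12.8 and 10.6 in the combined list and 5.06 and 4.41 in replicate 2.

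Few replicate peaks of V lacked an overlapping combined peak. Of the 289 peaks of replicate 1, 288 overlapped a combined peak (99.7% on V and 99.7% over all chromosomes). The exception ran from 7836791 to 7837460, with −log10 q of 3.95. Of the 308 peaks of replicate 2, 304 did (98.7%, background 99.6%). The 4 exceptions were weak, the strongest running from 9324192 to 9324553 with 5.65. The others, from 12536347 to 12537031, from 8251069 to 8251424 and from 11610509 to 11610759, had 4.004 to 4.11, and the first of these lay inside the second stretch of 9 peaks.

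Between the replicates, 250 of the 289 peaks of replicate 1 (86.5%, 82.1 to 89.97, background 84.0%) overlapped a peak of replicate 2. In the other direction 252 of 308 did (81.8%, 77.1 to 85.7, background 82.8%). The 39 unpartnered peaks of replicate 1 had a median −log10 q of 4.78 and reached 8.81. The 56 of replicate 2 had a median of 4.52 and reached 7.84. Partnered peaks had medians of 8.20 and 8.45.

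Over the 250 pairs on V, in each of which a replicate 1 peak is set beside its strongest partner, Spearman's rho of strength was 0.85 and Pearson's r was 0.95. Both are descriptions over peaks of the same 2 libraries. Replicate 1 was the stronger in 134 pairs (53.6%, 47.4 to 59.7), and the median difference of 0.23 in −log10 q, replicate 1 minus replicate 2, was small beside the median absolute difference of 1.66. Among the strongest sites replicate 1 was the stronger more often, though no interval was computed for that share. Of the 77 combined peaks of V whose −log10 q reached 20 and which met exactly 1 peak of each replicate, 48 were stronger in replicate 1. Their replicate values were a median 0.547 of the combined value in replicate 1 (quartiles 0.485 and 0.609) and 0.514 in replicate 2 (0.453 and 0.557). Positions were close, with a median of 37.8 bp between paired centres, 275.1 bp at the 90th percentile and 5 pairs over 500 bp apart. Widths showed little overall shift, with a median ratio of replicate 2 to replicate 1 of 1.01 over the 239 pairs with no other partner. Spearman's rho of width over these pairs was 0.82.

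**Figure D5:**
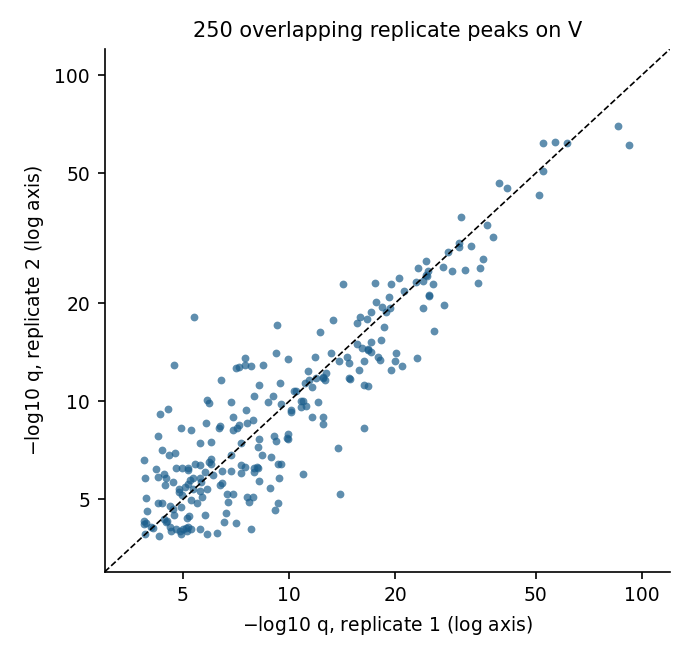
Strength (−log10 q, log axes) of the 250 overlapping pairs of peaks on V, replicate 1 across and replicate 2 upward, with equal strength as a dashed line. The pair with the highest value in replicate 1 lies below the line, at 92.1 and 61.1, and other strong pairs lie on either side of it; Spearman's rho is 0.85.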

How the data were processed

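Peak lists of HLH-30 ChIP-seq were used for 2 ChIP replicates and, as a combined list, for the series. The deposited value of each peak is a q-value made by the authors with PeakSeq on build WormBase WS180, per the file headers and the caller named in each line. Not given in the sources used here are the PeakSeq version, the aligner, the filters, the control and how the combined list was made. The largest q-values on V were 0.000197 in the combined list and 0.000136 in each replicate. Depth is unknown, since no counts were used.

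From the lists −log10 q, widths, gaps, overlaps (at least 1 bp), 250 kb bins by peak centre and groups (gaps up to 10 kb) were computed. The length of V was taken as its last peak end in any list, 20899426, which is a lower bound. The functions were tested on simulated data. Named peaks and stretches followed a rule: the 12 strongest, the 5 widest, the leaders of each overlap class, the replicate peaks outside the combined list, the 5 most crowded groups, the 5 longest gaps, the 3 fullest bins with ties, and the empty bins. The members and lists were chosen with earlier results of these data known. No statistical test was run. Alternatives were other peak lists, overlaps, joining distances, distance measures and length spans. Python 3.11.15, numpy 2.4.6, pandas 2.3.3, scipy 1.17.1 and matplotlib 3.10.9 were used.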

Additional observations from a re-analysis of the deposited data

How the results depend on the processing

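Alternatives numbered 42 for 8 results on V, and 35 of the values moved by more than the spread used. That spread was the SD of the replicates, the Wilson interval for overlap, or the second decimal for rho. These spreads are not alike, so the count of 35 is not a common measure of stability. For the share in the middle part the SD was 0.566, whereas the Wilson interval of the combined list was 44.2 to 52.9. Of the alternatives for that share, only 43.5%, with joined groups counted as 1, lay outside this interval. The middle part held more than its 33.3% of the length under each alternative. Except for overlap, a replicate left out means that the list of the other replicate alone stood in for the combined list. Those values are therefore the replicate values of the Results, and no combined list was remade. Its share of peaks was 52.2% in the stronger 50% of the combined list, 51.3% among peaks in both replicates, 49.5% of the base pairs covered, 50.2% to 51.0% with a replicate left out, and 43.5% when each group of peaks joined up to 10 kb counted as 1, which lowers it by counting the crowded middle less. Density was 12.01 per Mb in the stronger 50% by construction, 11.4 among peaks in both replicates, 14.4 with near peaks counted once, and 13.8 to 14.7 with a replicate left out. The share found in both replicates was 38.6% with centres within 200 bp and 86.5% in the stronger 50%. With a replicate left out, the share found in the other was 54.5% to 57.1%. The median gap was 40.6 kb in the stronger 50%, 40.2 kb among peaks in both replicates and 26.0 to 27.2 kb with a replicate left out, since fewer peaks lie farther apart. The share of grouped peaks was 44.6%, 47.1% and 53.98% to 55.2% in the same lists, 47.7% with joining up to 5 kb and 76.5% with joining up to 20 kb. The longest peak-free stretch was 884.2 kb in the stronger 50%, 884.2 kb among peaks in both replicates and 811.0 to 884.5 kb with a replicate left out. Median width was 708 bp in the stronger 50%, 707 bp among peaks in both replicates, and 522 to 549.5 bp with a replicate left out. Spearman's rho between replicates was 0.84 for peaks with a single partner, 0.77 in the narrower 50% of the pairs, 0.86 in the wider 50%, and 0.84 without the 2 pairs farthest from the median. No paired analysis was possible because the lists used here cover the ChIP libraries alone, and the inputs with the same numbers were not analysed here. The lists give no depth, so a site missing from a list cannot be called unbound.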
